A study of Mus musculus with 38 samples.

Results

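Late retinoic acid treatment was compared with early treatment in Neuro2A cells, a mouse neuroblastoma line that stops dividing and extends neurites when given retinoic acid. The late arrays were all those of cells treated for 12 or 24 h (RA12h and RA24h, 7 each), and the early arrays all those of cells treated for 1 or 3 h (RA1h and RA3h, 5 each). These 24 arrays were chosen by their labels from 38 in all, and all 576 probes of each entered the comparison, of which 473 carried a gene name. The groups used were RA24h and RA12h, with RA6h (7 arrays) between them and RA3h and RA1h in time, and the untreated 0 h controls (7 arrays). Every treated culture first grew for 48 h with 10% fetal bovine serum, and then received 20 uM all-trans-retinoic acid in medium with 2% serum; the controls were collected at the end of the first 48 h, in 10% serum. Neuro2A is a single established line, and each replicate combined 4 to 6 plates. The labels do not say that replicates were separate cultures on separate days, so p-values measure the spread between these samples. No group received the change of serum alone. Late and early arrays shared the change of medium and the drug but differed in the hours since both began, and the part of each in any difference cannot be told apart.

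Retinoic acid enters the nucleus and binds the retinoic acid receptors, which pair with retinoid X receptors on DNA elements built from repeated hexamers. Genes that carry such elements, among them Rarb and Cyp26a1, are known to respond within hours. Later changes in neuroblastoma cells are known to follow through transcription factors, adhesion molecules and the cytoskeleton as neurites form. The array carries mouse KIAA genes, a collection of long cDNAs that encode many large cytoskeletal, adhesion and signalling proteins; Rarb and Cyp26a1 were not among its named probes.

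Tenm4 and Atmin rose between the early and the late arrays, and no probe fell past the threshold on quantile normalised values. Tenm4, a teneurin, is a large transmembrane protein that links neurons through adhesion and guides axons. Atmin is a zinc-finger transcription factor that binds the ATM kinase and activates the dynein light chain gene Dynll1. Of the 576 probes, 0.347% were called higher and 0% lower by limma at an adjusted p under 0.05, which is 2 probes. At an unadjusted p under 0.05 there were 37 higher (6.42%) and 41 lower (7.12%) probes. The count of calls depended on the processing. It was 78 with no normalization, 65 with median centring, 75 on ranks, 166 with array quality weights and 80 with trend and robust variances. Of these calls 69, 63, 17, 102 and 20, in that order, had a gene name, and the others were unnamed probes. With 1 array left out the count was 1 to 12. Of the genes called lower in some of the 14 alternative settings, the most frequent were Mark3 and Zfp423, in 7 each, and Ablim1 and Gpcpd1, in 6 each. Otud4 followed in 5 and Epb41l1 in 4, and further genes were called lower in fewer settings.

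The sequences just before the annotated starts of these genes are shown because retinoic acid receptors bind DNA directly, with Cyfip2, which had the largest difference at 24 h among called genes, beside them. Each run holds the 250 bases before a start site, 5′ to 3′ on the gene's strand, from RefSeq on the build GRCm38.p6. The first Tenm4 window is chr7:96170994-96171243 and the second chr7:96211421-96211670, both on the plus strand. The Atmin window is chr8:116943143-116943392 on the plus strand, and the Cyfip2 window chr11:46312359-46312608 on the minus strand. Capitals mark each match on either strand to any of 4 forms of the receptor hexamer, which are AGGTCA, the variant GGGTCA, the variant AGTTCA and the variant GGTTCA.
Tenm4 first start: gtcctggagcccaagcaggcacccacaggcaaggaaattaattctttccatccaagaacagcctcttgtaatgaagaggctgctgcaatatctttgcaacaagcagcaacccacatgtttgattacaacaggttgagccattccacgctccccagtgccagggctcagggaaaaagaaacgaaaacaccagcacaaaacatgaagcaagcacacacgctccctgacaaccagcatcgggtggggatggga
Tenm4 second start: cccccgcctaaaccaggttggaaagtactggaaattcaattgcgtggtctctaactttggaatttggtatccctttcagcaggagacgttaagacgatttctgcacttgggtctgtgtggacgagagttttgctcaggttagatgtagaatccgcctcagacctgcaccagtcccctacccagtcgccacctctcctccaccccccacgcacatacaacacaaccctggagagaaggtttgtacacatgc
Atmin: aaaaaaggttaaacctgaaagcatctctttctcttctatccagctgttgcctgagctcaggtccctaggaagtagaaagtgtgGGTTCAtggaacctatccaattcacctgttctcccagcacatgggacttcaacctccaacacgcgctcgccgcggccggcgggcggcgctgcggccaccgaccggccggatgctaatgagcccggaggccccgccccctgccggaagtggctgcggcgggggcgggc
Cyfip2: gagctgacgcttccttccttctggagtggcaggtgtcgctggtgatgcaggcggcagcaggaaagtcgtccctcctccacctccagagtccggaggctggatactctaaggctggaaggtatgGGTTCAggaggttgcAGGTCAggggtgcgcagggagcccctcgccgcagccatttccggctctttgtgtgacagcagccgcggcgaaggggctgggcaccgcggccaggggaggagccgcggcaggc

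The Atmin window held 1 match, GGTTCA, from 167 to 162 bases before the start. The Cyfip2 window held GGTTCA from 127 to 122 and AGGTCA from 112 to 107 bases before the start. Neither Tenm4 window held a match. The background of such matches is high: 30.5% of 591 start sites of genes on the array and 38.6% of 32851 start sites of all RefSeq genes held at least 1. Tandem pairs of the hexamer with a gap of 1, 2 or 5 bases, the known spacings for these receptors, were present in 0%, 0.169% and 0% of the array's start sites, and in 0.164%, 0.174% and 0.0883% of all. Such a pair was absent from every window shown. A match is a description of the letters in the window and no measure of receptor binding.

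Tenm4 was above the lowest value of the table on 13 of 14 late arrays and on none of the 10 early arrays. The lowest value, 0.540 on the deposited intensity scale, recurred on most arrays and is called the floor; for a probe at the floor only a limit from above is known. In deposited intensity Tenm4 had 0.540 as its lowest, 0.964 as its median and 1.34 as its highest value on late arrays, against 0.540 on every early array. On the scale used for the tests, quantile normalised log2 intensity, the RA12h values were 0.19, -0.14, 0.57, 0.13, -0.81, 0.11 and -0.22 and the RA24h values -0.43, -0.50, -0.21, -0.76, 0.10, -0.23 and 0.60, against -0.80, -0.78, -0.78, -0.81 and -0.81 for RA1h and -0.81, -0.79, -0.79, -0.79 and -0.80 for RA3h. All 7 RA24h arrays and 6 of 7 RA12h arrays lay above every early array, and the exception, RA12h replicate 5, lay at the floor. The late mean was -0.11 ± 0.43 (SD, n = 14), against an early mean of -0.80 ± 0.01 (SD, n = 10). The log2 difference was 0.68 ± 0.13 (SE, limma adjusted p = 0.00357), a fitted 1.60-fold. Because every early array and 1 late array lay at the floor, the size of this fold depends on the scale, and the log2 difference was 0.30 with an offset of 1 added to the intensities and 0.79 with no normalization.

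No probe lay at the floor on 6 of the 14 late arrays, whose lowest values were all above it. Among the 8 late arrays that did reach the floor, Tenm4 lay above it on 7. With the arrays that never reached the floor left out of the fit, the log2 difference was 0.61 and the adjusted p 0.0460. Over 1, 3, 6, 12 and 24 h, the mean normalised levels of Tenm4 were -0.80, -0.80, -0.63, -0.02 and -0.20. Against the early arrays, RA12h was higher by 0.77 ± 0.15 (log2, SE, adjusted p = 0.00779) and RA24h by 0.59 ± 0.15 (adjusted p = 0.0388). The untreated controls averaged -0.60, and Tenm4 lay at the floor on 4 of these 7 arrays.

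Atmin was above the floor on every early and late array. Its normalised log2 levels at RA12h were 1.33, 2.12, 1.94, 1.46, 0.45, 1.58 and 1.43 and at RA24h 1.51, 1.97, 1.82, 1.41, 1.79, 1.39 and 1.46, against 1.21, 0.67, 0.73, 0.44 and 0.78 at RA1h and 1.20, 0.85, 0.25, 1.00 and 1.28 at RA3h. On this normalised scale the 7 RA24h arrays lay above every early array, as did 6 of 7 RA12h arrays. RA12h replicate 5, again the exception, lay below the early mean. In deposited intensity the late and early arrays overlapped. Lowest, median and highest Atmin values were 1.30, 2.29 and 3.47 on late arrays, against 1.36, 2.06 and 3.23 on early arrays. The late mean was 1.55 ± 0.40 (SD, n = 14), against 0.84 ± 0.34 (SD, n = 10) early. The log2 difference was 0.71 ± 0.16 (SE, adjusted p = 0.0253), which is 1.63-fold. Mean levels stood at 0.77, 0.92, 1.14, 1.47 and 1.62 at 1, 3, 6, 12 and 24 h, each above the one before it, and at 0.80 in the untreated controls. Neighbouring times overlapped in their single arrays.

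The call of Atmin was lost under some scalings of the arrays, and that of Tenm4 under none of those run. On deposited values with no further normalization the Atmin difference was 0.25 (log2, adjusted p = 0.198), and with the range of each array as a covariate it was 0.27 (adjusted p = 0.474). Tenm4 passed the threshold in 14 of 14 alternative settings and Atmin in 9 of 14. RA12h replicate 5 was 1 of 5 arrays with a low rank correlation to the others.

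**Figure D1:**
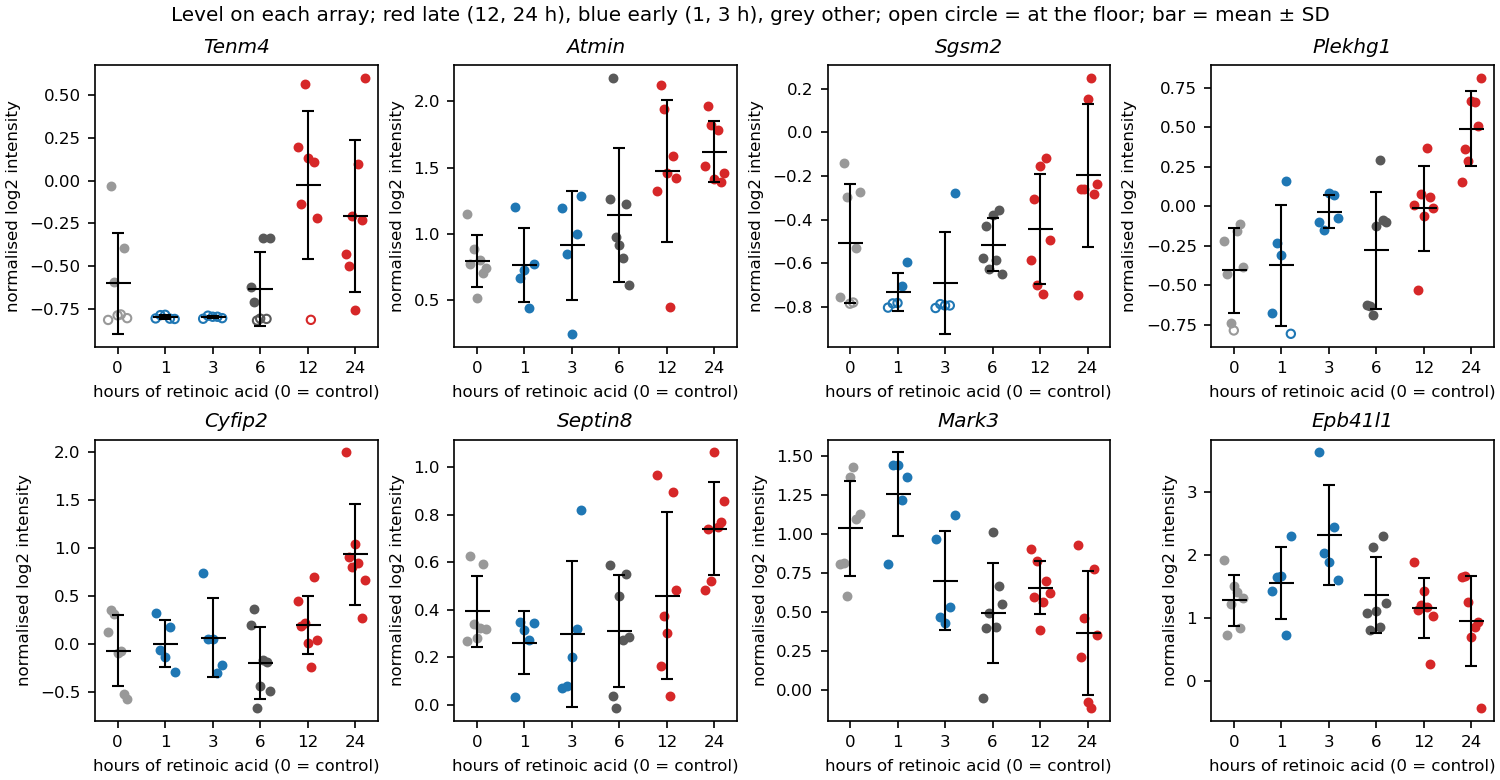
Normalised log2 intensity of the 7 genes called in any comparison with the early arrays, and of Epb41l1, which was called in none. The horizontal axis gives hours of retinoic acid (0 is the untreated control). Each point is 1 array and bars show the mean and SD of a group. Tenm4 sits at the floor on all 10 early arrays and above it on 13 of 14 late arrays, and Atmin averages 1.62 at 24 h, against 0.77 at 1 h.

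The arrays themselves differed between late and early treatment. Late arrays had a narrower spread of deposited log2 values, with an interquartile range of 1.00 ± 0.40 (SD, n = 14), against 1.60 ± 0.12 (SD, n = 10) on early arrays, a difference of -0.60 (two-sided permutation test, 100000 resamples, p = 0.000210). Of the late arrays, 11 of 14 lay below every early array. Values under the lowest early one, 1.41, were not limited to late arrays. The interquartile range ran from 0.39 to 1.52 on RA6h arrays and from 1.23 to 1.83 on the untreated controls. The number of probes at the floor ran from 0 to 156 with a median of 103 on late arrays, against 145 to 205 with a median of 168.5 on early arrays. On deposited values the late minus early difference followed the level of the probe. In 4 classes of mean level with 144 probes each, the median difference was 0.16 (log2) in the dimmest, 0.18 and -0.06 in the middle classes and -0.43 in the brightest. After quantile normalization these medians were -0.01, 0.03, 0.01 and -0.01. Results are given on normalised values. Of the 78 probes with an unadjusted p under 0.05, 54 had the same sign on deposited values, 32 of the 37 higher and 22 of the 41 lower. Of the 37 higher probes 34 had a gene name, and of the 41 lower 23. At the floor on over 50% of arrays were 18 of the 78, all unnamed, and their signs were not counted apart.

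**Figure D2:**
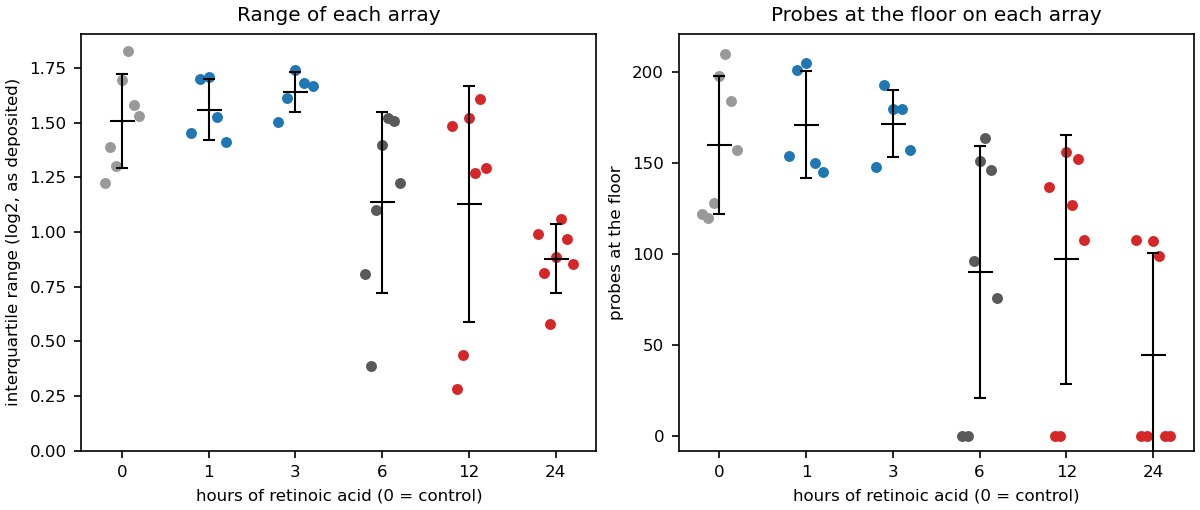
Interquartile range of the deposited log2 values (left) and number of probes at the floor (right) for each array, by hours of retinoic acid. Points are arrays and bars are the mean and SD. Late arrays (red) average 1.00 and early arrays (blue) 1.60 in the left panel.

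**Figure D3:**
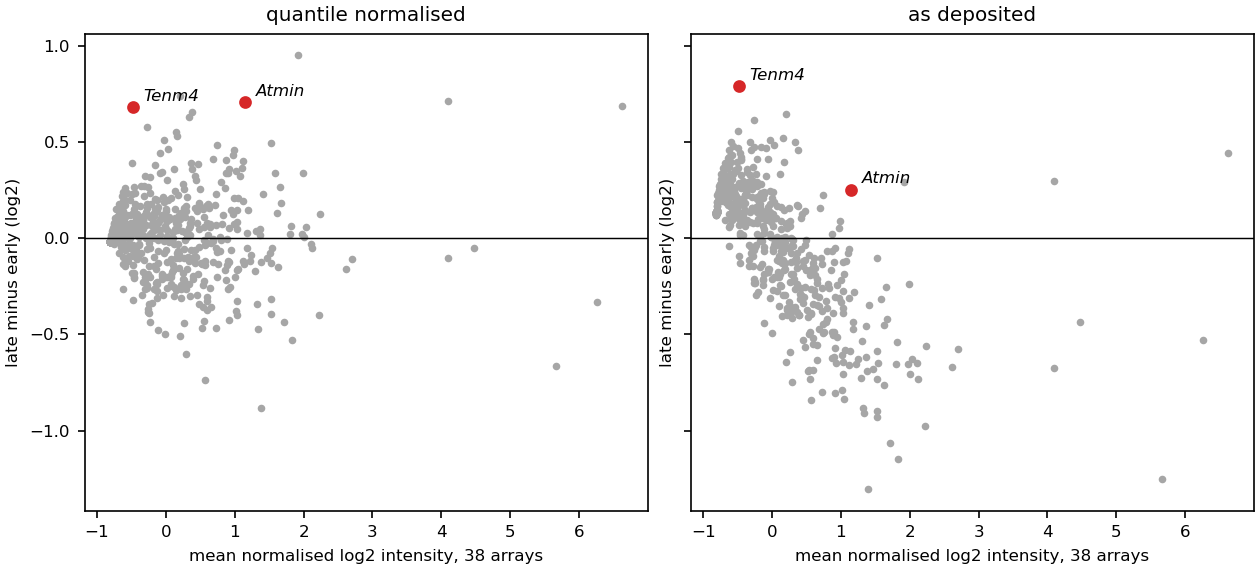
Late minus early difference (log2) of each of the 576 probes against its mean normalised log2 intensity over 38 arrays, on quantile normalised values (left) and on deposited values (right). The deposited differences slope downward with level, to a median of -0.43 in the brightest class of 144 probes, and the normalised differences do not; Tenm4 and Atmin are marked.

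Taken singly against the same 10 early arrays, 12 h gave 1 call and 24 h gave 7. Leaving out 1 array gave 1 to 2 calls at 12 h and 2 to 13 at 24 h, with 13 without RA24h replicate 1 and 2 without RA24h replicate 5. At 12 h, 0.174% of probes were called higher and 0% lower, and the gene was Tenm4. At 24 h, 1.04% were called higher and 0.174% lower. The 6 higher genes were Cyfip2, Plekhg1, Sgsm2, Atmin, Septin8 and Tenm4, and the lower gene was Mark3. At 6 h, 0% were called higher and 0% lower by limma, with 26 probes at an unadjusted p under 0.05 and a smallest adjusted p of 0.397. Because these comparisons share the early arrays, their values are not independent of each other. A difference between 24 h and 12 h was not tested.

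Cyfip2, which belongs to the WAVE complex and through it controls the branching of actin filaments, had the largest 24 h difference among the called genes. Its RA24h values were 2.00, 0.90, 0.80, 1.04, 0.84, 0.28 and 0.67 (normalised log2), against 0.33, -0.06, -0.14, 0.17 and -0.29 for RA1h and 0.74, 0.06, 0.06, -0.30 and -0.22 for RA3h. Of the RA24h arrays, 5 of 7 lay above every early array. The difference at 24 h was 0.90 ± 0.19 (log2, SE, adjusted p = 0.0106). The RA12h arrays averaged 0.20 and the RA6h arrays -0.20, and over both late times Cyfip2 missed the threshold (0.53 ± 0.16, adjusted p = 0.0862).

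Plekhg1, a guanine nucleotide exchange factor of small GTPases, had RA24h values of 0.15, 0.36, 0.29, 0.67, 0.66, 0.50 and 0.81, against -0.68, -0.23, -0.31, 0.16 and -0.81 for RA1h and -0.10, -0.15, 0.08, 0.07 and -0.08 for RA3h (normalised log2). Of the RA24h arrays, 6 of 7 lay above every early array, and 1 of 7 RA12h arrays did. The 24 h difference was 0.70 ± 0.14 (SE, adjusted p = 0.0106), and the RA12h mean was -0.01. Over both late times the difference was 0.44 ± 0.12 (adjusted p = 0.0794).

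Sgsm2, a protein with a domain that activates the GTPase activity of Rab proteins, lay at the floor on 7 of 10 early arrays and on none of the late arrays. Its RA24h values were -0.75, -0.26, -0.26, 0.15, 0.25, -0.28 and -0.24 (normalised log2), against -0.80, -0.78, -0.78, -0.70 and -0.59 for RA1h and -0.81, -0.79, -0.79, -0.79 and -0.28 for RA3h. Of the RA24h arrays, 5 of 7 lay above every early array, including the single high one, RA3h replicate 5. The 24 h difference was 0.51 ± 0.12 (SE, adjusted p = 0.0184), set against early values that are mostly at the floor and there known only as limits. Septin8, a subunit of the septin filaments found at membranes and in axons, had RA24h values between 0.49 and 1.06 (normalised log2), against a highest early value of 0.82. Its 24 h difference was 0.46 ± 0.12 (SE, adjusted p = 0.0388), and 2 of 7 RA24h arrays lay above every early array. In deposited intensity, Septin8 ran from 1.02 to 2.10 (median 1.45) on late arrays, against 1.03 to 2.28 (median 1.28) on early arrays. Over both late times Septin8 was called in 4 of 14 alternative settings, with a log2 difference as low as 0.037. Sgsm2 was called in 7 of these settings, and Cyfip2 and Plekhg1 in 6 each. Atmin differed by 0.78 ± 0.19 at 24 h (SE, adjusted p = 0.0266).

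Mark3, a kinase that phosphorylates microtubule-associated proteins, was the gene that fell at 24 h. Its RA24h values were 0.93, 0.21, 0.46, -0.08, -0.12, 0.78 and 0.35 (normalised log2), against 0.80, 1.44, 1.44, 1.21 and 1.37 for RA1h and 0.96, 0.46, 0.43, 0.53 and 1.12 for RA3h. The early groups stood apart from each other here, with means of 1.25 at 1 h and 0.70 at 3 h, and 4 of 7 RA24h arrays lay below every early array. The 24 h difference was -0.62 ± 0.15 (log2, SE, adjusted p = 0.0266). Over both late times it was -0.47 ± 0.13 (adjusted p = 0.0794), with 14 of 14 late arrays below the early mean.

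**Figure D4:**
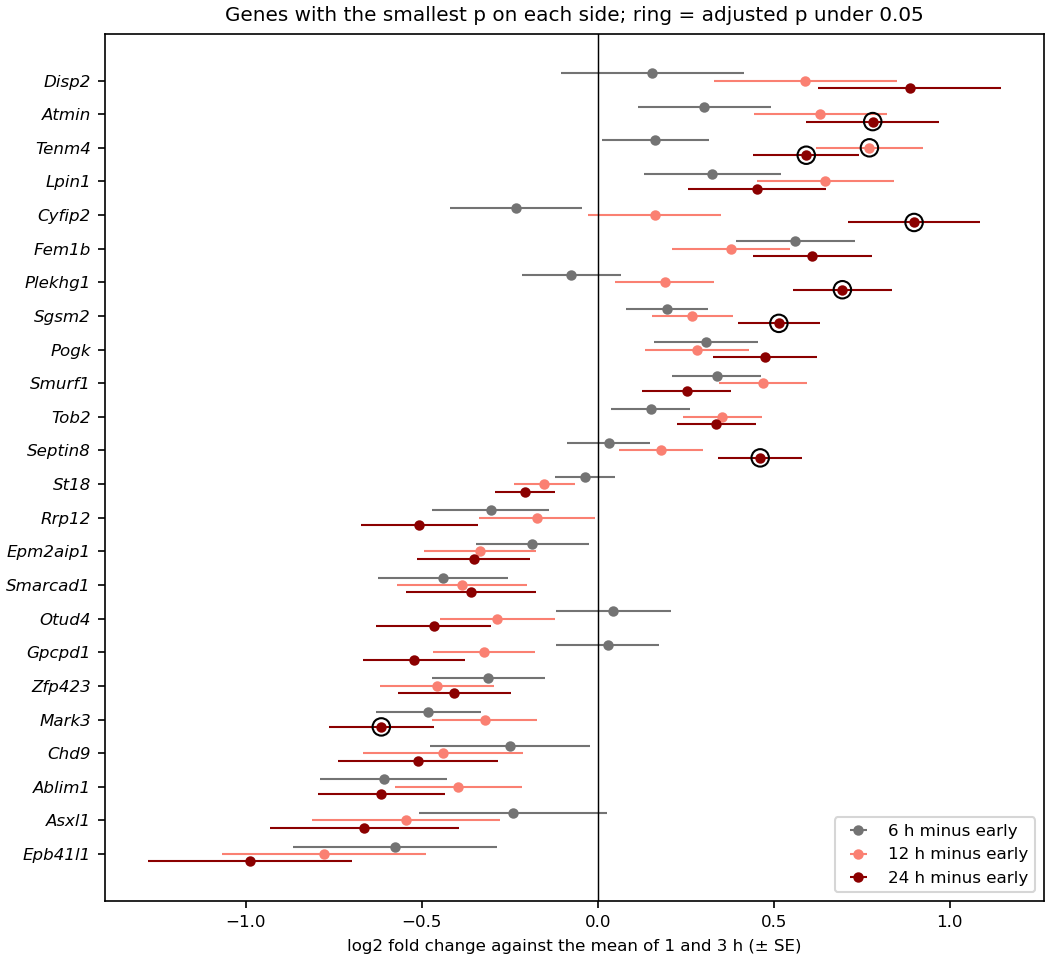
Difference from the 10 early arrays (log2, with SE) of 6 h, 12 h and 24 h for the 12 named genes with the smallest p on each side, 1 row per gene; rings mark an adjusted p under 0.05. Cyfip2 and Plekhg1 lie at 0.90 and 0.70 at 24 h, and Tenm4 at 0.77 at 12 h and 0.59 at 24 h.

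Below the threshold, 13 probes had an adjusted p between 0.05 and 0.10, 9 higher and 4 lower, and none of them is a call. Disp2, a relative of the Dispatched protein that releases Hedgehog ligands, had the largest positive value of the named genes in that range. Its normalised log2 level was -0.81, 0.72 and 1.58 as the lowest, median and highest on late arrays, against -0.78, -0.16 and 0.51 on early arrays, a difference of 0.74 ± 0.22 (SE, adjusted p = 0.0862). Lpin1, a phosphatidate phosphatase of lipid synthesis, differed by 0.55 ± 0.16 (adjusted p = 0.0862). Tob2, an antiproliferative protein that recruits the deadenylase complex to mRNA, differed by 0.35 ± 0.09 (adjusted p = 0.0798), and 14 of 14 late arrays lay above the early mean. Smurf1, a ubiquitin ligase of the BMP pathway, differed by 0.36 ± 0.11 and Fem1b, a substrate receptor of a cullin ligase, by 0.49 ± 0.14 (both adjusted p = 0.0862). Fem1b had a deposited difference of -0.10, of the opposite sign. Unnamed probe 168, the brightest of these, differed by 0.69 ± 0.21 (adjusted p = 0.0941).

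On the lower side, Epb41l1, which anchors membrane proteins to the spectrin and actin skeleton of neurons, had the largest difference. Its normalised log2 level was -0.42, 1.15 and 1.89 as the lowest, median and highest on late arrays, against 0.74, 1.78 and 3.63 on early arrays. The difference was -0.88 ± 0.24 (SE, adjusted p = 0.0798), with 14 of 14 late arrays below the early mean and 3 of 14 below every early array. Its means over 1, 3, 6, 12 and 24 h were 1.56, 2.32, 1.36, 1.16 and 0.95, with the peak at 3 h. Ablim1, an actin-binding LIM protein, differed by -0.51 ± 0.15 and Gpcpd1, a glycerophosphocholine phosphodiesterase, by -0.42 ± 0.12 (both adjusted p = 0.0862). Zfp423, a zinc-finger factor known from human neuroblastoma cells to take part in the response to retinoic acid, differed by -0.43 ± 0.14 (adjusted p = 0.107).

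The gene lists are described by counts and medians beside those of all 473 named probes, of which 259 were higher and 214 lower, with 34 higher and 23 lower at an unadjusted p under 0.05 and a median log2 difference of 0.02. Of the 16 lists, 12 kept the sign of their median under the 4 other scalings tried. The medians of axon guidance and adhesion, retinoic acid signalling, the ubiquitin system, and autophagy and endolysosomal trafficking changed sign under at least 1.

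Among 22 measured genes of axon guidance and adhesion, Tenm4 was the 1 call, and the list median was 0.01. Of the other teneurins measured, Tenm3 stood at -0.34 (adjusted p = 0.356) and Tenm2 at -0.09. Sema6d, a transmembrane semaphorin that steers growing axons, stood at -0.50 (adjusted p = 0.356). Among 30 genes of the synapse and exocytosis, 20 were higher and 10 lower, none was called, and the median was 0.08. Its members with the smallest p were Psd3, an exchange factor of Arf6, at 0.26, Madd, which activates Rab3, at 0.38, and Cacna1h, a T-type calcium channel subunit, at -0.27; 3 members were higher and 1 lower at an unadjusted p under 0.05.

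The cytoskeletal lists had members on both sides and no call over both late times. Of 19 actin genes, 8 were higher and 11 lower, with 3 higher and 2 lower at an unadjusted p under 0.05 and a median of -0.06; Cyfip2 stood at 0.53 and Epb41l1 at -0.88. Of 20 genes of microtubules and motors, 9 were higher and 11 lower, with 1 higher and 4 lower at that level and a median of -0.02. Cep170b, a microtubule-binding relative of a centrosomal protein, stood at 0.58 ± 0.19 (adjusted p = 0.148), and Pcnt, which scaffolds the centrosome, at -0.46 (adjusted p = 0.355). Of 34 exchange factors and activating proteins of small GTPases, 19 were higher and 15 lower, with 4 higher and 1 lower at an unadjusted p under 0.05 and a median of 0.03; Sgsm2 stood at 0.39 ± 0.10 (adjusted p = 0.0607).

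**Figure D5:**
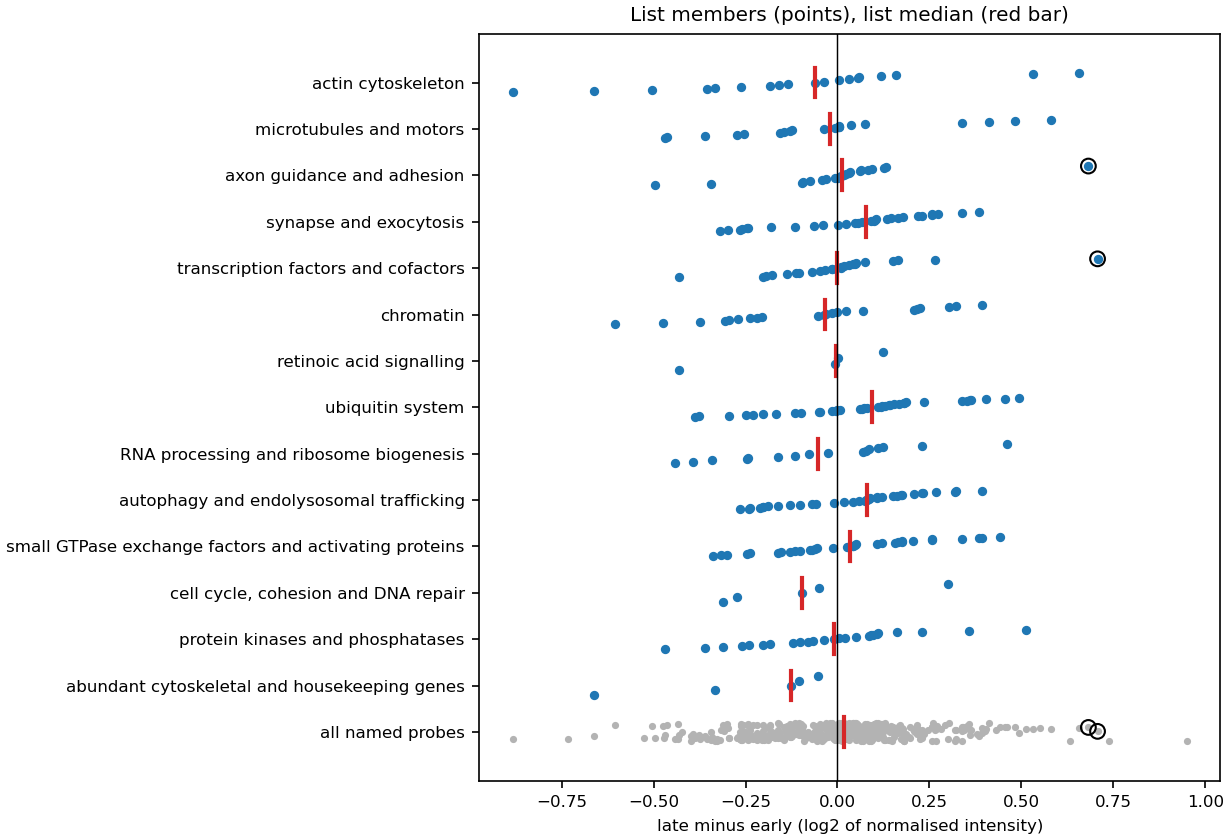
Late minus early difference (log2, normalised values) of the measured members of each gene list, 1 row per list. Points are genes and the red bar is the list median; rings mark Tenm4 and Atmin, past the threshold. The medians of the 14 lists drawn lie between -0.13 and 0.09; the lists with 1 and 2 measured genes are not drawn.

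Atmin was the 1 call among 24 transcription factors and cofactors, of which 12 were higher and 12 lower. St18, a factor of the myelin transcription factor family, stood at -0.18 (adjusted p = 0.319), and its deposited difference was 0.07. Of 22 chromatin genes, 8 were higher and 14 lower and none was called. The 3 with an unadjusted p under 0.05 were all lower: Asxl1, a partner of the deubiquitinase of histone H2A, at -0.60 (adjusted p = 0.234), Chd9, a chromatin remodeller, at -0.47 (adjusted p = 0.319), and Smarcad1, another remodeller, at -0.37 (adjusted p = 0.340). Late Asxl1 arrays had normalised log2 levels of -0.80, 0.01 and 0.94 as lowest, median and highest, against 0.13, 0.63 and 1.20 on early arrays.

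The pathway of the drug was thinly covered, since 4 of 57 listed genes of retinoic acid signalling were measured and none was called. These were Zfp423 at -0.43, Acin1, an RNA-binding repressor of the receptor, at 0.12, Rere, a coactivator of retinoic acid signalling, at -0.0072, and Med13l, a Mediator kinase-module subunit, near 0. The signs of Acin1 and Rere depended on the setting. The ubiquitin system had 38 measured genes, 24 higher and 14 lower, with 5 higher and 1 lower at an unadjusted p under 0.05; its median was 0.09 on normalised and -0.15 on deposited values. Autophagy and endolysosomal trafficking had 23 of 36 genes higher, 0 calls and 3 higher and 1 lower at an unadjusted p under 0.05; its median was 0.08 and turned to -0.06 with median centring. Rb1cc1, a subunit of the kinase complex that starts autophagy, stood at 0.32 ± 0.13 (adjusted p = 0.341).

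Kinases and phosphatases had 12 of 25 genes higher and 13 lower, with 1 higher and 2 lower at an unadjusted p under 0.05; Ppm1e, a phosphatase of the PAK kinases, stood at 0.51 ± 0.17 (adjusted p = 0.140). RNA processing and ribosome biogenesis had 7 of 16 genes higher and 9 lower. Tnrc6c, a partner of Argonaute proteins in silencing by miRNAs, stood at 0.46 and Rrp12, a factor of ribosome export, at -0.34 (both adjusted p = 0.319). The 5 genes of the cell cycle, cohesion and DNA repair had 0 calls, 1 higher and 4 lower. All 5 abundant cytoskeletal and housekeeping genes lay lower on normalised values (Actb -0.66, Actg1 -0.33, Cltc -0.13, Tubb5 -0.10 and Gapdh -0.05), none was called, and 1 of 5 turned higher with cyclic loess and 2 of 5 with ranks.

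Markers could say little about the identity of the cells. Of 34 listed neuronal markers the array measured 1, Nefh, a heavy neurofilament subunit, at a normalised log2 level of 1.17 ± 0.36 (SD, n = 14) on late and 1.29 ± 0.32 (SD, n = 10) on early arrays (difference -0.12, adjusted p = 0.708). Nefh was called lower in 3 of 14 alternative settings, among them no normalization (-0.65) and median centring (-0.72). Of 49 listed markers of glial, stromal, endothelial and immune cells it measured Pxdn at -0.25 (adjusted p = 0.499) and Phldb1 at -0.31 (adjusted p = 0.355). In bulk RNA fewer cells with a transcript and less transcript per cell cannot be told apart.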

How the data were processed

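Single-colour Cy5 intensities were deposited for 576 probes on 38 arrays; per the labels' protocols, polyadenylated RNA was hybridised to mKIAA oligonucleotide arrays and spots were quantified with Phoretix. The authors' background correction, scaling and floor for these intensity values are not stated in the labels. Genes were named from the platform annotation, with 473 probes of 1 gene, none of several and 103 unnamed; 472 identifiers were found in a RefSeq table (GRCm38.p6).

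Intensities were taken to log2 and quantile normalised over all arrays, whose medians differed by over 0.1. All probes were fitted with limma 3.58.1 (R 4.3.3) on 6 groups and 32 residual degrees of freedom. P-values were adjusted by Benjamini-Hochberg across all 576 probes, contrast by contrast, and called under 0.05. Precision is limited by the number of arrays, with a median SE of 0.14 for late minus early, a factor of 1.10. The fit was tested on simulated data. Figures were drawn with matplotlib 3.10.9.

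Genes named were every probe past the threshold in late minus early, the 12 named genes with the smallest p on each side, the 3 list members with the smallest p, and every gene called in another contrast. The members and lists were chosen with earlier results of these data known. The main fit did not pair samples by replicate number, and the labels do not say what same-numbered arrays share. Of 87 same-numbered pairs, 35 had a residual correlation over 0.1. Among arrays numbered 1 these were 11 of 15 pairs, with a median correlation of 0.31, and for each other number 2 to 5 pairs. Arrays numbered 1 were also 3 of the 5 arrays of low correlation. Pairs of different numbers were not counted for comparison. Alternatives covered scaling, an offset, dim probes, samples in the fit, weights, variances, array range, doubted arrays and single arrays.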

Additional observations from a re-analysis of the deposited data

Results flagged for a closer look

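In 48 groups of values, for the 7 genes called in any comparison with the early arrays and for array range, 3 single arrays stood far from the others of their group, and chance gives about 1 in 20 groups. Septin8 was low on RA1h replicate 1, at 0.0331 (normalised log2). Sgsm2 was high on RA3h replicate 5, at -0.276. Atmin was high on RA6h replicate 2, at 2.18, a group that enters late minus early only through the shared spread and the common normalization.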

How the results depend on the processing

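Tenm4 kept its direction and its call in 14 of 14 alternatives (log2 0.30 to 0.79, adjusted p 9.24e-07 to 0.0460) and with each array left out in turn (0.62 to 0.75). Atmin kept its direction in all of them and lost its call in 5 alternatives: no normalization (0.25, adjusted p = 0.198), median centring (0.18, 0.403), the compared arrays fitted alone (0.69, 0.0578), array range as a covariate (0.27, 0.474) and arrays above the floor left out (0.61, 0.0700). It also lost it in 7 of 38 fits without 1 array (0.62 to 0.80). The count of late minus early calls, 2, was 78 with no normalization, 65 with median centring, 75 on ranks, 166 with array quality weights and 80 with trend and robust variances. Of these calls 69, 63, 17, 102 and 20, in that order, had a gene name. The count was 1 with the compared arrays only, 6 with array range as a covariate and 4 without arrays above the floor. It was 13 without the 5 arrays of low correlation and 9 without arrays numbered 1, a setting chosen after seeing the data. The cause of these moves was not tested. Leaving out 1 array gave 1 to 12 calls: 12 without RA24h replicate 1, 6 without RA3h replicate 5, 5 without RA12h replicate 5, 4 without RA1h replicate 1 or 5, and 1 without replicate 2 or 3 of RA1h, RA3h or RA24h.

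The 12 h count, 1, was 3 with no normalization and 1 to 2 without 1 array, with 2 calls without RA12h replicate 5 or RA24h replicate 1. The 24 h count, 7, was 64 with no normalization, 11 with dim probes left out and 2 to 13 without 1 array: 13 without RA24h replicate 1, 2 without RA24h replicate 5, 3 without RA1h replicate 2 or 5, and 4 without RA1h replicate 4, RA3h replicates 1 or 3, or RA24h replicates 4 or 7. The 6 h count, 0, was 2 with no normalization and 0 without any 1 array. The replicate number as a block gave 8 calls for late minus early, 4 at 12 h, 11 at 24 h and 0 at 6 h. The labels give same-numbered arrays no more than a number in common. Of 38 arrays, 10 correlated best with an array of their own number, among the arrays of other groups. The count to be expected by chance was not computed. The difference in array range stayed between -0.64 and -0.54 without any 1 array, and was -0.24 by SD and -0.63 on named probes.

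Signs turned for genes that were not called. Fem1b stood at -0.10 with no normalization and -0.17 with median centring, and St18 at 0.066 with no normalization. Acin1 stood at -0.56 with no normalization, -0.63 with median centring, -0.055 rank points and -0.0087 with array range as a covariate. Rere stood at 0.088 with cyclic loess, 0.84 rank points, 0.088 with quality weights, 0.23 with array range and 0.16 without arrays above the floor, and between -0.12 and 0.10 without 1 array. Cltc stood at 4.18 rank points, 0.39 with array range and between -0.38 and 0.024 without 1 array, and Pxdn at 0.012 with array range. Of 672 values of named genes under an alternative, 519 kept direction and side of the threshold, 133 passed it in the same direction, 5 lost it and 15 changed sign. No spot background was used here, so the floor alone limits what is known of dim probes.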

Other observations

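Vat1l had the largest difference of any probe but missed the threshold. This relative of the vesicle amine transport protein was not among the genes chosen by the rule and was picked after its values were seen. Its normalised log2 level was 1.97, 2.31 and 2.93 as the lowest, median and highest on late arrays, against -0.80, 1.78 and 2.63 on early arrays, a difference of 0.95 ± 0.33 (SE, limma adjusted p = 0.187). The lowest early value of Vat1l was at the level of the floor, where only a limit from above is known. All 14 late arrays lay above the early mean, and the early arrays spread widely, with an SD of 1.09 against 0.28 on late arrays. Tln1, which couples integrins to actin, was picked the same way and stood at 0.66 ± 0.24 (adjusted p = 0.224), with 12 of 14 late arrays above the early mean.

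Of the 78 probes with an unadjusted p under 0.05, 57 had a gene name, 34 higher and 23 lower, and 21 were unnamed. At the floor on over 50% of arrays were 18 of the 78, all of them unnamed.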
